A study of Mus musculus with 2 samples.

Results

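The oligodendrocyte lineage genes examined here are 46 genes, listed by name, that mark the line of cells leading from the dividing precursor to the myelinating oligodendrocyte. They were sorted into 5 genes used across the whole lineage, 4 genes of the precursor, 8 genes of the committed cell that has left the cycle, and 29 genes of the mature cell. All 46 were found among 55536 annotated genes. Total RNA came from the left cerebral cortex of 2 female B6CASTF1/J mice, offspring of a cross between the C57BL/6 and CAST strains, at 25 days of age. The starting amount for both libraries was 300 ng of RNA, to which synthetic ERCC spike-in RNAs were added. The libraries carry replicate numbers 2 and 1 and separate animal numbers in the labels, but 1 donor identifier, so the spread between them may cover preparation only. Nothing in the labels sets the libraries apart by genotype or treatment, so the comparison of replicate 2 with replicate 1 is between a pair of like libraries and has no p-value.

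Oligodendrocyte precursors divide in the adult and developing brain and carry the receptor for platelet-derived growth factor. When one leaves the cycle it passes through a short committed stage, in which it makes few myelin proteins, and then wraps axons in a sheath of compacted membrane rich in galactolipids. In the mouse cortex this takes place largely after birth. The transcription factors OLIG2 and SOX10 act through most of the lineage, and MYRF switches on many myelin genes at its end.

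Annotated genes held 27079700 expected counts in replicate 2 and 31191535 in replicate 1, and spike-ins took 0.378% and 0.350% of all counts in that order of libraries. Levels are given as TPM, a value per transcript length, so they can be compared between genes. Genes that reached a TPM of 1 in each library were taken as detected, which held for 12922 of 21938 nuclear protein-coding genes (58.9%). These detected genes are the scale for the percentiles below. Differences are log2 ratios of CPM (counts scaled to library size, with 0.1 added) in replicate 2 over replicate 1, with an exact 95% interval that covers counting error only. Over the 15682 genes with a mean CPM of at least 1, the ratio had a median of -0.02 and its 5th and 95th percentiles were -0.34 and 0.48. It was above 0 in 45.5% of them. In tissue RNA, more cells of a type and more RNA per cell cannot be told apart.

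The stages differed in level and in how far the libraries stood apart. Mature genes had a median of 27.8 TPM, at percentile 67.7 of the detected genes, against 4.99 TPM (percentile 19.8) for committed genes, 9.22 TPM (percentile 33.7) for precursor genes and 14.6 TPM (percentile 47.0) for genes of the whole lineage. Within the mature stage the level went with other listed sources: its 8 genes with another source had a median of 60.7 TPM (percentile 86.5). Its 21 genes without one had 10.1 TPM (percentile 36.0). Precursor genes stood near this at 9.22 TPM, but all 4 have another listed source, like the mature genes at 60.7 TPM. For Trf, Enpp2 and Car2 the other source is the choroid plexus, a tissue outside the cortex. These lists were written with earlier results of these data known. Of the 46 members 45 were detected, and the exception was the mature gene Klk6. In replicate 2 over replicate 1 the median log2 ratio was 0.49 for the 28 mature genes tested, 0.18 for committed genes, -0.07 for precursor genes (0.07 on deposited TPM) and 0.08 for lineage genes. The summed TPM of mature genes was 1537 in replicate 2 and 1113 in replicate 1, while that of precursor genes was 48.6 and 45.4. Between these lay committed genes with 82.8 TPM in replicate 2 and 71.8 in replicate 1, as did lineage genes with 119.6 and 98.5. The sums cover 29 mature, 4 precursor, 8 committed and 5 lineage genes, so their order is not that of the medians. These are descriptions of 2 libraries, and no test of a difference between stages was made. The percentile of the precursor genes depends on length, since without division by length (CPM in place of TPM) their median lay at percentile 53.0, above that of lineage genes at 48.0.

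**Figure D1:**
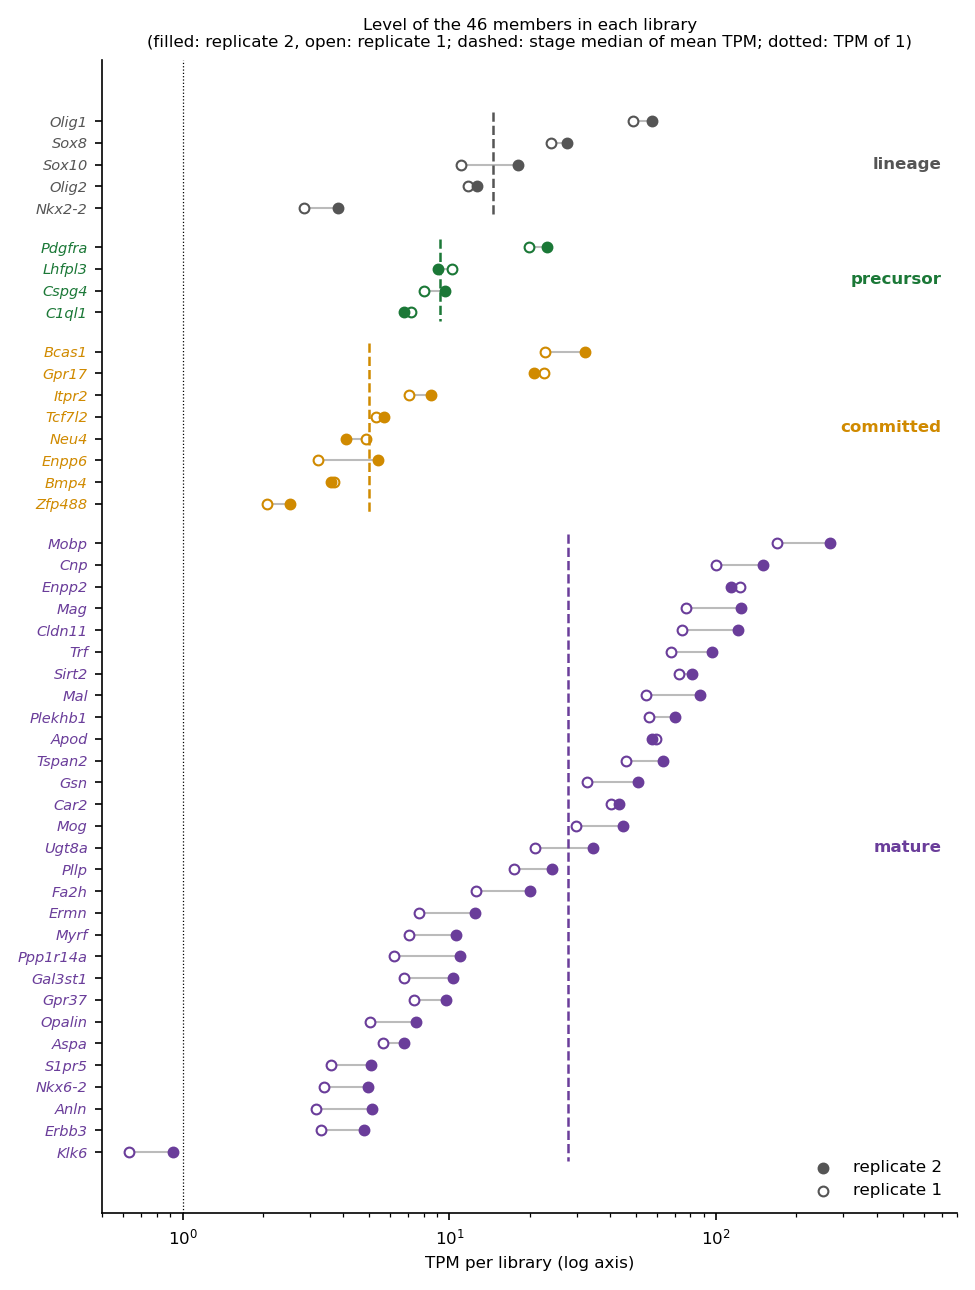
TPM of each member on a log axis in replicate 2 (filled) and replicate 1 (open), by stage, with the stage median of mean TPM as a dashed line and a TPM of 1 as a dotted line. Mean levels of mature genes span from 0.775 TPM for Klk6 to 219 TPM for Mobp, and in most of them the filled point lies to the right of the open one.

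By a rule of size, at least 1.5-fold at a mean CPM of at least 1, 8 of the 45 members tested were higher in replicate 2, where 3.05% of all tested genes were. None was lower, where 1.65% of all tested genes were. The 8 comprised 7 mature genes and the committed gene Enpp6. The threshold runs through a dense group, with Mobp at 1.5004-fold and Mag at 1.503-fold just inside it and Mal at 1.498-fold and Ugt8a at 1.494-fold just outside. The count moved with the unit and the scaling, as did the share of all tested genes: 13 members passed on deposited TPM (5.50% of all tested genes), 4 with 1 CPM added in place of 0.1 (0.988%), 3 with scaling to the spike-ins (2.201%), and none at 2-fold (0.319%). By the counting interval, which sets no size, 31 of 45 members were higher in replicate 2 (13.6% of all tested genes) and 3 were lower (19.5% of all tested genes). Those 31 were 25 of the 28 mature genes tested, 3 of 8 committed, 1 of 4 precursor and 2 of 5 lineage genes.

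**Figure D2:**
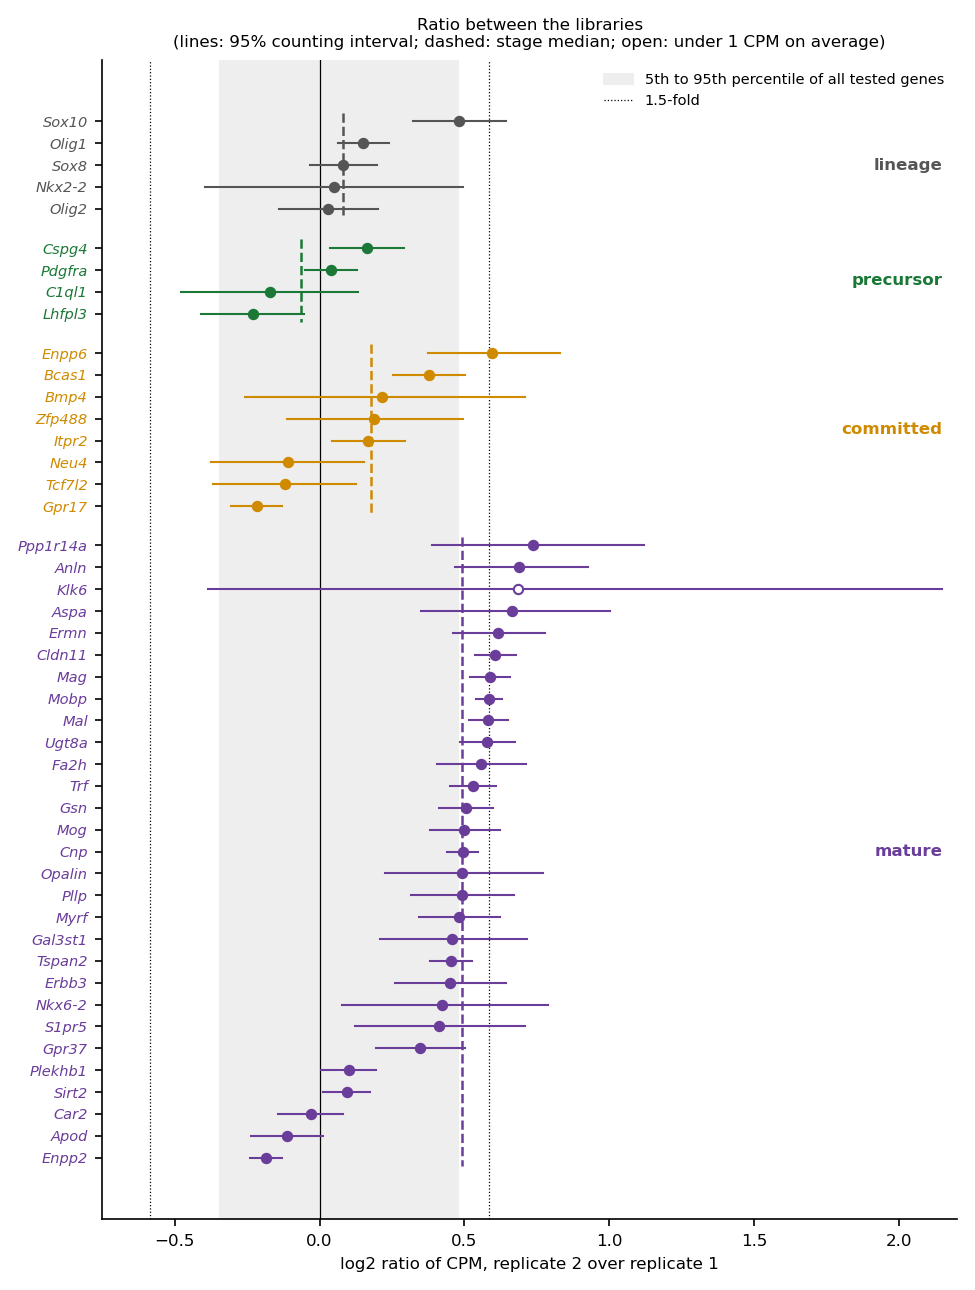
Log2 ratio of CPM in replicate 2 over replicate 1 for each member, by stage, with its 95% counting interval as a line, the stage median as a dashed line, 1.5-fold as dotted lines and the 5th to 95th percentile of all tested genes as a grey band. Mature genes gather around 0.49, with Enpp2, Apod and Car2 below 0, while precursor genes lie between -0.23 and 0.16.

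Genes used across the lineage encode transcription factors. Olig1, a basic helix-loop-helix factor, had 57.3 TPM in replicate 2 and 48.7 TPM in replicate 1. Its relative Olig2, needed to specify the lineage, had 12.7 and 11.8 TPM, so that Olig1 stood 4.50 times above Olig2 in replicate 2 and 4.14 times above it in replicate 1. The ratio between these neighbouring genes of chromosome 16 was thus similar in both libraries. Sox8 had 27.5 TPM in replicate 2 and 24.1 TPM in replicate 1, and its log2 CPM ratio of 0.08 (-0.03 to 0.20) did not leave counting error. Nkx2-2, a homeodomain factor that times differentiation, was the lowest of the group with 3.84 TPM in replicate 2 and 2.85 in replicate 1, on 84 and 91 counts. Its log2 CPM ratio was 0.05, with an interval of -0.39 to 0.50.

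Sox10 stood apart from the other lineage factors. It had 18.1 TPM in replicate 2 and 11.1 TPM in replicate 1, a log2 CPM ratio of 0.48 (0.32 to 0.64), which is within the range of the mature genes and well above the 0.03 of Olig2 and the 0.15 of Olig1. Its relative Sox8, of the same SOXE family, was 1.52 times as abundant as Sox10 in replicate 2 and 2.18 times in replicate 1. SOX10 remains a factor of myelin genes in the mature cell. The counts of Sox8 overlap an annotated antisense RNA, 2810468N07Rik, with 20.4 TPM in replicate 2 and 15.1 TPM in replicate 1. No source used here says how strand entered the counting.

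The 4 precursor genes had log2 CPM ratios between -0.23 and 0.16. All lay within the 5th to 95th percentile of all tested genes (-0.34 to 0.48). Pdgfra, the receptor for platelet-derived growth factor, had 23.2 TPM in replicate 2 and 19.95 TPM in replicate 1, and its log2 CPM ratio was 0.04 (-0.05 to 0.13). Cspg4, which encodes the NG2 proteoglycan, had 9.59 and 8.05 TPM in the same order and a ratio of 0.16 (0.04 to 0.29). The remaining precursor genes leaned the other way. Lhfpl3, a membrane protein of the tetraspan kind, had 9.04 TPM in replicate 2 and 10.2 TPM in replicate 1, with a ratio of -0.23 (-0.41 to -0.05). C1ql1, a secreted C1q-like protein, had 6.75 and 7.17 TPM and a ratio of -0.17 (-0.48 to 0.13). No precursor gene reached 1.5-fold in either direction, nor did most tested genes (3.05% were higher and 1.65% lower by as much). All 4 have another source by the lists used here, fibroblasts of the meninges for Pdgfra, mural cells of vessels for Cspg4 and excitatory neurons for C1ql1 and Lhfpl3. A further list of 10 precursor genes had a median log2 ratio of -0.02, with 4 of 10 above 0, near the 45.5% of all tested genes. Its most abundant genes were Gpr37l1, a receptor shared with astrocytes, with 91.5 TPM in replicate 2 and 92.3 in replicate 1, and Ptprz1, a receptor phosphatase, with 59.0 and 54.4.

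Committed genes split. Gpr17, a receptor found on cells between the precursor and the myelinating stage, had 20.7 TPM in replicate 2 and 22.7 TPM in replicate 1. It was the committed gene with the lowest log2 ratio, -0.22 (-0.31 to -0.13), and the only one whose interval lay below 0. Neu4, a sialidase, pointed the same way with 4.09 and 4.86 TPM, but its ratio of -0.11 (-0.38 to 0.15) was within counting error, as was that of Tcf7l2, a transcription factor of the Wnt pathway, at -0.12 (-0.37 to 0.13). Tcf7l2 had 5.71 TPM in replicate 2 and 5.29 TPM in replicate 1, so that TPM and CPM disagree on its direction.

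Bcas1 and Enpp6, which mark cells beginning to myelinate, were higher in replicate 2. Bcas1 had 32.1 TPM in replicate 2 and 22.9 TPM in replicate 1, a log2 CPM ratio of 0.38 (0.25 to 0.50). Enpp6, a choline phosphodiesterase, had 5.42 and 3.21 TPM and a ratio of 0.59 (0.37 to 0.83), and was the only committed gene past 1.5-fold. Set against Gpr17 within each library, Bcas1 was 1.55 times as abundant in replicate 2 and 1.01 times in replicate 1, and Enpp6 0.262 times and 0.141 times. The FASTQ-based table gave Bcas1 1.85 times the TPM of Gpr17 in replicate 2 and 1.05 times in replicate 1. Lims2, a gene on the other strand that overlaps Gpr17, had 12.1 TPM in replicate 2 and 7.46 TPM in replicate 1.

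The other committed genes differed less. Itpr2, a calcium channel of the endoplasmic reticulum, had 8.57 TPM in replicate 2 and 7.03 TPM in replicate 1, with a ratio of 0.17 (0.04 to 0.29). Bmp4, a secreted signal that holds back maturation, had 3.60 and 3.69 TPM on only 76 and 73 counts, and Zfp488, a zinc finger regulator of the lineage, had 2.52 and 2.08 TPM on 185 and 182 counts. Neither left counting error, with ratios of 0.22 (-0.26 to 0.71) and 0.19 (-0.11 to 0.49). TPM and CPM disagree on the direction of Bmp4 too. Zfp488 also depended on the quantification, because the FASTQ-based table gave it 4.23 times the alignment-based counts in replicate 2 and 3.78 times in replicate 1. A further list of 8 committed genes had a median log2 ratio of 0.07. In it 1 gene, Rnf122, was higher in replicate 2 by 1.5-fold (3.05% of all tested genes). The most abundant genes of the list were Fyn and Cd9. Fyn, a kinase of myelin initiation, had 64.7 TPM in replicate 2 and 59.4 in replicate 1, and Cd9, a tetraspanin, had 28.1 and 24.8.

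Mature genes began with their regulators. Myrf, the factor that drives myelin genes, had 10.6 TPM in replicate 2 and 7.04 TPM in replicate 1, a log2 ratio of 0.48 (0.34 to 0.62). Nkx6-2, a homeodomain factor of myelinating cells, had 4.97 and 3.39 TPM and a ratio of 0.42 (0.08 to 0.79). Both intervals lay above 0. Relative to Sox10, Myrf was at 0.585 times its TPM in replicate 2 and 0.635 times in replicate 1, so these regulators kept nearly the same proportion while both were higher in replicate 2. Reads of Nkx6-2 lie beside Inpp5a, an overlapping gene on the other strand with 26.0 TPM in replicate 2 and 25.5 TPM in replicate 1.

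The 11 genes of the myelin membrane and sheath were all higher in replicate 2 by their counting intervals (13.6% of all tested genes). Of the 11, 4 were higher by 1.5-fold (3.05% of all tested genes). Mobp, a basic protein of compact myelin, was the most abundant member of all, with 268 TPM in replicate 2 and 169 TPM in replicate 1 and a log2 ratio of 0.59 (0.54 to 0.63). Cnp, a phosphodiesterase of the cytoplasmic channels of myelin, followed with 149 and 100.1 TPM and a ratio of 0.49 (0.44 to 0.55). Cldn11, the claudin of the myelin tight junctions, had 121 TPM in replicate 2 and 74.8 TPM in replicate 1, a ratio of 0.61. The tetraspan proteins Mal and Pllp of myelin lipid rafts differed in level but not in direction, Mal with 86.9 and 54.7 TPM and Pllp with 24.3 and 17.5 TPM. Tspan2, a tetraspanin, had 63.1 TPM in replicate 2 and 45.9 TPM in replicate 1, and Mog, a protein of the outermost myelin surface, had 44.7 and 29.8 TPM. The low end held Ermn, a cytoskeletal protein of late oligodendrocytes, with 12.5 and 7.67 TPM and the largest ratio of the group at 0.62, and Opalin, a membrane glycoprotein, with 7.47 and 5.02 TPM and a ratio of 0.49. Plekhb1, a pleckstrin homology protein listed here for astrocytes too, had 70.2 TPM in replicate 2 and 56.0 TPM in replicate 1, and its ratio of 0.10 (0.01 to 0.19) was the smallest of the group.

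Mag, an adhesion protein of the membrane next to the axon, is made in a long form and a short form that differ at the cytoplasmic end. It had 124 TPM in replicate 2 and 76.8 TPM in replicate 1, a log2 ratio of 0.59 (0.52 to 0.66). The annotation gives the short form 582 residues and the long form 627. The short form ends in a 45-base exon that the long form skips, and its last coding bases are shown because they end the short form, with the stop codon in capitals (GRCm38, chr7:30900364-30900396, minus strand).
Mag short-form end: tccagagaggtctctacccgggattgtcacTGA
Of the TPM in transcripts with a complete annotated end, the short form held 74.3% in replicate 2 and 70.9% in replicate 1 (mean 72.6 ± 2.37, SD, n = 2). The FASTQ-based table gave 70.6% and 68.8% in the same order. Both forms were higher in replicate 2, the short form with 68.7 TPM against 41.2 in replicate 1 and the long form with 23.8 TPM against 16.9. A further transcript without an annotated end, Mag-205, held 18.1% of the TPM of Mag in replicate 2 and 18.8% in replicate 1 in the alignment-based table and none in the FASTQ-based one. To which form its reads belong was not tested.

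Enzymes of myelin lipids split into a group that followed the sheath genes and one that did not. Ugt8a, which makes galactosylceramide, had 34.7 TPM in replicate 2 and 20.9 TPM in replicate 1, a ratio of 0.58 (0.48 to 0.68). Fa2h, which hydroxylates its fatty acids, had 20.01 and 12.6 TPM and a ratio of 0.56, and Gal3st1, which adds sulfate to give sulfatide, had 10.3 and 6.77 TPM and a ratio of 0.46. Steps of 1 lipid pathway thus stood apart between the libraries by like amounts, and Ugt8a was 3.35 times as abundant as Gal3st1 in replicate 2 and 3.09 times in replicate 1. Aspa, which splits N-acetylaspartate and frees acetate for lipid synthesis, had 6.77 TPM in replicate 2 and 5.62 TPM in replicate 1. Its log2 CPM ratio of 0.66 (0.35 to 1.00) was the largest of the enzymes, but on TPM it did not reach 1.5-fold. By alignment, the transcript Aspa-201 held 83.5% of its TPM in replicate 2 and 52.1% in replicate 1. The part of this shift in the gap between TPM and CPM was not tested.

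Enpp2, which encodes autotaxin, the enzyme that makes lysophosphatidic acid, went the other way. It had 113 TPM in replicate 2 and 123 TPM in replicate 1, and its log2 ratio of -0.18 (-0.24 to -0.13) made it the only mature gene whose interval lay below 0. Enpp2 is also strongly expressed in the choroid plexus. Of the 9 choroid plexus genes listed, 4 could be tested and all 4 were lower in replicate 2 (45.5% of all tested genes were higher), and the summed TPM of the list was 9.06 in replicate 2 and 105 in replicate 1. Most of that sum was Ttr, transthyretin, with 4.79 and 96.0 TPM. The part of that tissue in the value of Enpp2 was not tested. Set against the committed gene of its own family, Enpp2 was 20.9 times as abundant as Enpp6 in replicate 2 and 38.3 times in replicate 1.

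Carriers and other enzymes were mixed. Trf, transferrin, the iron carrier, had 96.5 TPM in replicate 2 and 67.6 TPM in replicate 1, with a ratio of 0.53 (0.45 to 0.61). Car2, a carbonic anhydrase, had 43.1 and 40.4 TPM and Apod, a lipid-binding apolipoprotein, had 57.4 and 59.4 TPM. Their ratios of -0.03 (-0.14 to 0.08) and -0.11 (-0.24 to 0.01) did not leave counting error. On the direction of Car2, TPM and CPM disagree. Klk6, a protease of myelinating cells of spinal cord and white matter, was the lowest of all members, with 0.92 TPM in replicate 2 and 0.63 TPM in replicate 1 on 16 and 10 counts, and was too low to test. Trf shares its strand with the overlapping gene Gm20425, which had 66.4 expected counts in replicate 2 and 209 in replicate 1.

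Genes of the cytoskeleton held both the largest and some of the smallest differences. Ppp1r14a, an inhibitor of myosin phosphatase, had 11.0 TPM in replicate 2 and 6.19 TPM in replicate 1, and its ratio of 0.74 (0.39 to 1.12) was the highest of all tested members, on 159 and 106 counts. Anln, which anchors septins in myelin, had 5.14 and 3.17 TPM and a ratio of 0.69 (0.47 to 0.93). Gsn, the actin-severing protein gelsolin, had 50.8 TPM in replicate 2 and 32.9 TPM in replicate 1 and a ratio of 0.51. Sirt2, a deacetylase that neurons express too, had 81.3 and 72.3 TPM and a ratio of 0.09 (0.01 to 0.17). The 3 receptors, all low, kept to a narrow band. Gpr37, a receptor that restrains differentiation, had 9.69 TPM in replicate 2 and 7.35 TPM in replicate 1 (ratio 0.35), S1pr5, a receptor for sphingosine 1-phosphate, had 5.10 and 3.60 TPM (ratio 0.41), and Erbb3, a neuregulin receptor, had 4.80 and 3.31 TPM (ratio 0.45).

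Other listed sources went with the size of the difference among mature genes. Of the 28 tested, 20 have no other source in the lists used here. All 20 had intervals above 0 (13.6% of all tested genes), with ratios between 0.41 and 0.74 and a median of 0.53. The 8 with another listed source had a median of 0.10 and ranged from -0.18 for Enpp2 to 0.53 for Trf. The lists were written with earlier results of these data known, so this division is a description.

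**Figure D3:**
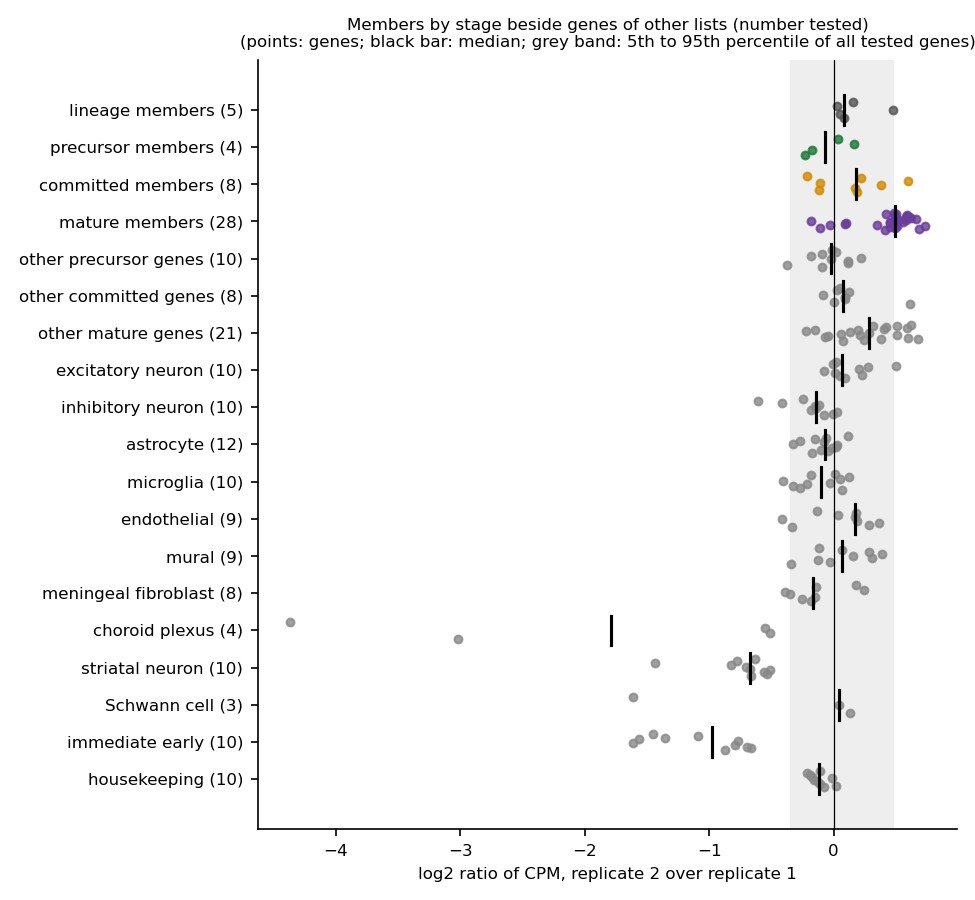
Log2 ratio of CPM in replicate 2 over replicate 1 for members by stage and for genes of other lists, with each gene as a point, the list median as a black bar and the 5th to 95th percentile of all tested genes in grey. Medians run from 0.49 for mature members and 0.28 for other mature genes to -0.67 for striatal genes, -0.98 for immediate early genes and -1.78 for choroid plexus genes.

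A further list of 22 genes of mature oligodendrocytes, not among the members, had 21 genes tested with a median log2 ratio of 0.28. Of these 21, 4 were higher in replicate 2 by 1.5-fold (3.05% of all tested genes) and none was lower by as much (1.65%). Mbp, the basic protein of compact myelin, had 903 TPM in replicate 2 and 586 TPM in replicate 1 (ratio 0.51). Ptgds, a prostaglandin synthase also made in the meninges, had 777 and 840 TPM and a ratio of -0.22 (-0.26 to -0.18). Lists of other cells of the cortex had medians nearer 0, with 0.07 for excitatory neurons, -0.15 for inhibitory neurons, -0.07 for astrocytes, -0.11 for microglia, 0.17 for endothelial cells, 0.07 for mural cells and -0.16 for meningeal fibroblasts, and -0.12 for housekeeping genes. Against a ratio above 0 in 45.5% of all tested genes, striatal genes were lower in replicate 2 in 10 of 10 cases, with a summed TPM of 384 in replicate 2 and 569 in replicate 1, and so were immediate early genes in 10 of 10, with 196 and 362. The part of dissection, or of any other tissue in the samples, in the difference of the mature genes was not tested.

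Promoters are shown for the most abundant mature members with a matched start that hold searched motifs, for Opalin, and for the precursor receptor Pdgfra. These include all 3 members with a MYRF core, while mature members without a searched motif, such as Cldn11 and Mal, are left out. The lines thus do not show how common the motifs are. RefSeq promoters (GRCm38.p6) matched 35 of the 46 members. Those without a match were Olig1, Sox10, Gpr17, C1ql1, Bcas1, Myrf, Trf, Enpp2, Fa2h, Car2 and Erbb3. Each line gives the 250 bases before the start, 5′ to 3′ on the gene's strand, with searched motifs in capitals: Mobp at chr9:120149492-120149741 (plus), Cnp at chr11:100574689-100574938 (plus), Mag at chr7:30914923-30915172 (minus, the start farthest upstream), Opalin at chr19:41077114-41077363 (minus) and Pdgfra at chr5:75152001-75152250 (plus).
Mobp promoter: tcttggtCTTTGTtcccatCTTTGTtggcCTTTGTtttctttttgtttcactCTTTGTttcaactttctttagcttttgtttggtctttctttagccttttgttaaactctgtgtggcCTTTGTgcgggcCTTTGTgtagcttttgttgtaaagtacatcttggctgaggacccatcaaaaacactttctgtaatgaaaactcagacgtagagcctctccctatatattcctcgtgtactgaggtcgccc
Cnp promoter: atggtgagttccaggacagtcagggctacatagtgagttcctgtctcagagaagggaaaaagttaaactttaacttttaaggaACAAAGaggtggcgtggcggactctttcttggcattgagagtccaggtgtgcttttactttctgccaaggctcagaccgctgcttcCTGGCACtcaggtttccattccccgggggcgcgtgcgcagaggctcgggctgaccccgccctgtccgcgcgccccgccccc
Mag promoter: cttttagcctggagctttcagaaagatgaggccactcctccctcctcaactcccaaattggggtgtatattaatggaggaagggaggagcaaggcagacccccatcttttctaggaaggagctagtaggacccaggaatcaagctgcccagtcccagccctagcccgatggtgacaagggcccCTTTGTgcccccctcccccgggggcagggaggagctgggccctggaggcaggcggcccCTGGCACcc
Opalin promoter: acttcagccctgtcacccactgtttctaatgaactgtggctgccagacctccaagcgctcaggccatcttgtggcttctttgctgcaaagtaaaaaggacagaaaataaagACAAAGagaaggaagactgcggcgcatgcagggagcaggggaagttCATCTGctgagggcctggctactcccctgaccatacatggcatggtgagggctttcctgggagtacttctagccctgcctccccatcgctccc
Pdgfra promoter: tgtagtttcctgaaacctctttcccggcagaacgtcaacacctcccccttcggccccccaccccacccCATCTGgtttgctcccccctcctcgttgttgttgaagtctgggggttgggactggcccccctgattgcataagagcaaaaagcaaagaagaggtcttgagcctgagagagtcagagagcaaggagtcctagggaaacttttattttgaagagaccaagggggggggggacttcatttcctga

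The motifs were the SOX core ACAAAG, the MYRF core CTGGCAC and the E-box CATCTG bound by OLIG factors, each on both strands in the window from 250 bases before to 50 after the start. CATCTG and CTGGCAC can share the letters CTG. Positions count from the first transcribed base as 0. Mag held a SOX core at -67 and a MYRF core at -9, and Cnp held the same pair at -167 and -81. Mobp held 6 SOX cores between -243 and -120, and Opalin a SOX core at -139 and an E-box at -93, with a further SOX core and a MYRF core after the start, at 23 and 36. Pdgfra held an E-box at -182 only.

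Over the 23 mature members with a promoter, 8 held a SOX core (34.8%), 3 a MYRF core (13.0%) and 9 an E-box (39.1%). Of 27025 genes with a promoter, 21.02% held a SOX core, 5.73% a MYRF core and 19.2% an E-box. The mature members had 32 promoters among them, and counted by promoter the shares were 28.1%, 12.5% and 28.1%, against 18.7%, 5.01% and 17.1% of 32851 promoters. Overlapping promoters of Mag hold the same SOX and MYRF cores, so the count by promoter includes these sites more than once. A further Mag promoter holds none of the motifs. The 3 members with a MYRF core, Mag, Cnp and Opalin, were all mature. None of the 3 lineage, 3 precursor and 6 committed members with a promoter held one, which is too few genes for a share near 5.73% to be seen. A match is a run of letters and does not show that a factor binds there.

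Transcript makeup was given for the 37 members with several annotated transcripts. The leading transcript held at least 50% of the gene's TPM in both libraries in 29 of 37, and it was the same transcript in both libraries in 32 of 37. The quantifications differed more than the libraries did, with the same leader in 26 of 37 and another in 11. For Sirt2, Sirt2-202 held 50.1% in replicate 2 and 59.5% in replicate 1 in the alignment-based table and near none in the FASTQ-based one, where Sirt2-201 led. Ugt8a-201 held 88.8% in replicate 2 and 96.7% in replicate 1 by alignment, and 35.0% and 23.4% by the FASTQ-based table. Over the whole gene, the FASTQ-based table gave Sirt2 1.07 times the alignment-based counts in replicate 2 and 1.08 times in replicate 1, and Ugt8a 1.10 times in both.

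In the alignment-based table the leaders by mean share of 44 of 46 members are annotated as protein coding. The exceptions are Mobp-204, with 57.3% in replicate 2 and 57.1% in replicate 1, and Nkx6-2-201, with 84.9% and 91.4%, both annotated for nonsense-mediated decay. In replicate 1 alone, Pllp was led by the processed transcript Pllp-202 (50.7%) and Bmp4 by Bmp4-204, which retains an intron (46.5%). In the FASTQ-based table Cnp was led by Cnp-204, annotated as a processed transcript, with 58.2% in replicate 2 and 60.8% in replicate 1. By alignment Cnp-204 held 40.4% and 37.1%. The FASTQ-based leader of Opalin by mean share was Opalin-202, which retains an intron, with 44.8% and 57.4%. Transcripts that retain an intron held a large share of Cspg4, with 49.5% in replicate 2 and 49.6% in replicate 1, and of Apod, with 45.6% and 47.0%, in the alignment-based table. In the FASTQ-based table the coding leader Cspg4-201 held 79.2% and 78.6%, and Apod-202 held 96.4% and 95.9%. The shares of Cspg4 and Apod were alike in both libraries and differed between quantifications.

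**Figure D4:**
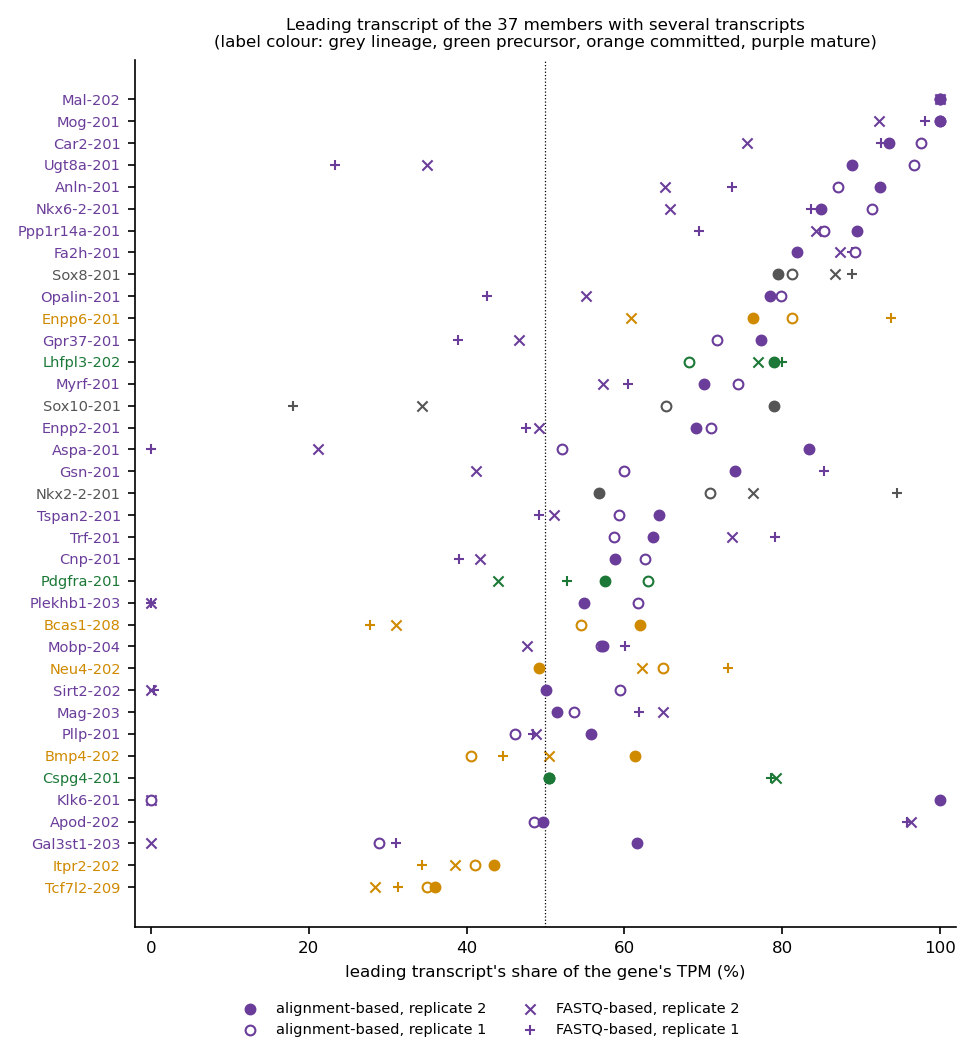
Share of the gene's TPM in its leading transcript for the 37 members with several transcripts, in replicate 2 and replicate 1, from the alignment-based table (filled and open circles) and the FASTQ-based table (crosses and plus signs), with 50% dotted. Circles of the same gene mostly lie close together, while crosses and plus signs lie far from the circles for Ugt8a, Sox10, Aspa, Plekhb1 and Sirt2.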

How the data were processed

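Per the labels, total RNA from the left cerebral cortex of mice of 1 group was sequenced. The 2 libraries carry separate animal numbers but 1 donor identifier, and were treated as 1 library an animal. The authors quantified reads on mm10, and no source used here names their aligner or quantifiers. The deposited alignment-based gene tables hold an expected count (an estimate that need not be whole) and TPM per gene, per the file headers. The deposited transcript tables give, for every transcript, its percent of the TPM of the gene, and the FASTQ-based ones an estimated count and TPM per transcript, summed here per gene. Symbols, classes and exons came from GENCODE M21. Reads from CAST chromosomes were counted on a genome of the C57BL/6 strain, and the effect was not tested. Entries that carry only a number (1.81e-05% of expected counts in replicate 2 and 6.39e-06% in replicate 1) name no gene and were left out.

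Library sizes were scaled by TMM on rounded expected counts (edgeR 4.0.16, limma 3.58.1 and R 4.3.3), with factors of 1.01 for replicate 2 and 0.987 for replicate 1. The log2 ratio of CPM with 0.1 added was called at 1.5-fold and a mean CPM of at least 1. Its exact 95% interval comes from the counts, which carry no molecular identifiers, so it covers counting error only. A count of 0 allows 3 counts, or 0.111 CPM in replicate 2 and 0.0962 CPM in replicate 1. With 1 library for each animal number no p-value was computed. The code was tested on simulated data. DESeq2 1.42.0 size factors were an alternative scaling. Intervals used scipy 1.17.1, tables pandas 2.3.3 with numpy 2.4.6, and plots matplotlib 3.10.9, in Python 3.11.15.

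The members, their stages and the other lists were chosen with earlier results of these data known. All members are named. Of the other oligodendrocyte lists genes with the highest mean TPM are named, some items are not reported here, and Rnf122, Ttr and overlapping genes were named after their values were seen. Alternatives tried were other scalings and units, other filters, pseudocounts and folds, the FASTQ-based tables and leaving out a library.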

Additional observations from a re-analysis of the deposited data

How the results depend on the processing

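Median log2 ratios of all 4 stages stayed within a band under every scaling, unit, filter and pseudocount tried. The band of a stage runs from the median lower to the median upper bound of its members' counting intervals. It is not the interval of any single member. The median of mature genes ran from 0.42 with spike-in scaling to 0.57 on deposited TPM. Medians of all tested genes moved by less than 0.1, from -0.09 with spike-in scaling to 0.07 on TPM. That of precursor genes was 0.07 on TPM, against -0.07 on CPM, and -0.14 with spike-in scaling. Single members left their main counting interval in 13 of 45 cases on TPM and 6 of 45 with spike-in scaling. Subtracting the median of the 500 genes nearest in length, chosen after seeing the data, gave 0.51 for mature genes. The counts of members at 1.5-fold depended most on the setting. All members higher in replicate 2 (8) and mature ones (7) became 3 and 3 with spike-in scaling, 13 and 11 on TPM, 4 and 4 with a pseudocount of 1, and 0 and 0 at 2-fold. Of all tested genes 3.05% passed in the main setting, and 2.201%, 5.50%, 0.988% and 0.319% in these, in the same order. The last setting is stricter by construction, and a larger pseudocount draws every ratio toward 0. Spike-in scaling changes only the library sizes and so lowers all ratios by nearly the same amount. For TPM the cause was not tested.

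Level percentiles moved for precursor genes (33.7) to 53.0 on CPM, 32.5 on FASTQ-based TPM and 43.8 with the background from a TPM of 0.1, and for committed genes (19.8) to 28.5, 28.6 and 32.1. Leaving out either library gave 20.8 to 21.3 for committed, 33.2 to 34.0 for precursor, 41.3 to 53.3 for lineage and 59.4 to 73.6 for mature genes. Leading transcripts at 50% numbered 29 in the main setting, 30 to 33 with a single library, and 23 for the leaders of the FASTQ-based table. A ratio cannot be had without a library. No paired analysis was possible because the samples form 1 group. Depth limits Klk6, Bmp4 and Nkx2-2, each on under 100 counts a library.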
